A study of Sus scrofa with 30 samples.

Results

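The pig mitochondrial genome carries a small set of protein genes, and all of them encode subunits of the enzymes that turn the oxidation of nutrients into ATP. The values below concern 10 of these genes, ND1, ND2, ND3, ND4, ND5, CYTB, COX1, COX2, COX3 and ATP6, out of 25880 genes in the count table. They were picked by identity and not by a measured value, though with earlier results of these data known. Their identifiers are ENSSSCG00000018065 (ND1), ENSSSCG00000018069 (ND2), ENSSSCG00000018084 (ND3), ENSSSCG00000018087 (ND4), ENSSSCG00000018091 (ND5), ENSSSCG00000018094 (CYTB), ENSSSCG00000018075 (COX1), ENSSSCG00000018078 (COX2), ENSSSCG00000018082 (COX3) and ENSSSCG00000018081 (ATP6). The table lists 13 mitochondrial protein genes, and the other 3, ATP8, ND4L and ND6, are given only as context.

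Electrons from NADH enter the respiratory chain at complex I, pass through complex III to complex IV, and reduce oxygen there, while protons are pumped out of the mitochondrial matrix. Complex V lets the protons flow back and makes ATP, which in beta cells closes potassium channels and so links glucose metabolism to insulin secretion. Both strands of the mitochondrial genome are transcribed into long RNAs that are then divided into the single messengers, and every complex except complex II combines mitochondrial with nuclear subunits.

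The study cultured neonatal islet cell clusters (NICCs), which form from digested pancreas of piglets aged 2 to 12 days, and followed their maturation in vitro. RNA was sequenced from 6 conditions with 4 libraries each. HSA/d1 was the start of maturation, at maturation day 1 or culture day 6, in medium with human serum albumin (HSA, 0.6 mg/ml). HSA/d5 was the same medium at maturation day 5, or culture day 10. The other 4 conditions were also sampled at maturation day 5. Fet-A/d5 received the liver-derived plasma protein fetuin-A (0.6 mg/ml) in place of albumin. HSA + SB/d5 received albumin with SB431542 (10 μmol/l), an inhibitor of the TGF-β receptor TGFBR. HSA + LDN/d5 received albumin with LDN, an addition whose full name and dose the labels do not give, and HSA + SB + LDN/d5 received both additions. The piglets were of 2 ages, 4 days and 12 days, with 2 animals each named for the fetuin-A comparison. The paper names German Landrace and Landrace-Yorkshire pigs, without saying which library came from which. The libraries came from 4 islet preparations, but the labels tie no library to a preparation or an age, and replicate numbers follow the order of the library codes. Messenger RNA had been enriched through its poly(A) tail from 0.2 μg of total RNA with an integrity number of at least 9.

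Levels are given as CPM, the count of a gene divided by all counts of its library and multiplied by 1000000. All 10 genes passed the filter on low counts, and the lowest count of any of them in a library was 7707, so counting error was small beside the differences between libraries. Gene lengths of the annotation that was counted were not used, so where a gene is named as the most abundant of a list this refers to CPM alone. Fold changes are on the log2 scale and come with a standard error (SE). A gene was called when the p-value of the quasi-likelihood test of edgeR, adjusted by Benjamini-Hochberg over 14842 genes, was below 0.05.

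Before the conditions are compared, a division among the libraries has to be described, because it is larger than any treatment difference for some of the genes. ATP8, which overlaps ATP6 and is not 1 of the 10, had between 0 and 13 counts in 12 libraries and between 3859 and 5933 counts in the other 12. The first 12 libraries are replicates 1 and 2 of every condition and are called the ATP8-low libraries here. The other 12, replicates 3 and 4, are called the ATP8-high libraries. Each condition thus holds 2 libraries of each kind, and the labels do not name a property that divides them in this way. The 2 ages of the piglets also make a division into 2 and 2, and whether the divisions coincide could not be tested without the age of each library. Nor could a link with the breed of the pigs be tested, since the breed of each library is not given.

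ND1 followed the same division. Its CPM was 415, 367, 1509.6 and 1267 in replicates 1 to 4 of HSA/d1, 373, 428, 1552 and 1223 in HSA/d5 and 506, 420.0, 1807 and 1517 in Fet-A/d5. It was 427, 448, 1519 and 1286 in HSA + SB/d5, 372, 414, 1329 and 1266 in HSA + LDN/d5 and 413, 425, 1318 and 1218 in HSA + SB + LDN/d5. All ATP8-high libraries therefore lay between 1218 and 1807 CPM and all ATP8-low libraries between 367 and 506 CPM. The mean log2 CPM of the ATP8-high libraries exceeded that of the ATP8-low libraries by 1.71 for ND1, 0.67 for ND2 and 0.48 for COX2, and these 3 genes did not overlap between the kinds. Such full separation was seen for 0.815% of all genes tested, 53 of which were higher and 68 lower in the ATP8-high libraries. For the other 7 genes the difference ran from -0.36 for CYTB and -0.21 for ND4 to 0.30 for COX3. An absolute difference above 1 was found for 4.1% of all genes tested. The cause of the division was not tested. Since it is balanced over the conditions, every comparison is given without and, where a call changes, with a covariate for it, a fit that was added after the data were seen. An interaction of each of 8 comparisons with the kind of library was also fitted for each of the 10 genes, and the lowest adjusted p of these 80 edgeR tests was 0.799 (COX3 during maturation, a difference in log2 fold change of 0.24). The largest absolute difference, ATP8-high minus ATP8-low, was -0.37 for COX1 with fetuin-A against albumin (adjusted p = 0.819 in edgeR). In that comparison ND5 was at -0.33 (adjusted p = 0.816 in edgeR). With 2 libraries of each kind per condition, these tests cannot show that the effects were equal.

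The library codes run in 4 sequences of 6, each holding every condition, and libraries of the same sequence deviated together from the means of their conditions. A fit with the sequence as a block, which also absorbs the division by ATP8, was therefore added after the data were seen. Its values are given where they change a call of ND, CYTB, COX or ATP6 genes. The labels do not say whether a sequence is an islet preparation.

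The libraries held the transcripts of pancreatic endocrine cells. INS (insulin) averaged 2087 CPM over the 24 libraries, GCG (glucagon) 13391 CPM, SST (somatostatin) 1776 CPM and PPY (pancreatic polypeptide) 509 CPM. CPA1 of exocrine acinar cells averaged 4284 CPM, CFTR of duct cells 1358 CPM and COL3A1 of mesenchymal cells 1386 CPM, so that the clusters were a mixture. None of the marker genes that could be matched had 0 counts in all libraries. In such bulk samples, fewer cells of a type and less RNA per cell cannot be told apart.

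Complex I accepts electrons from NADH, and the ND genes encode subunits of its membrane arm, through which protons are moved. ND5 encodes the subunit at the far end of this arm. Its CPM in replicates 1 to 4 was 3713, 3143, 4957 and 4709.6 in HSA/d1, 4056, 4244, 6539 and 4998 in HSA/d5 and 6116, 5760.2, 6594 and 6694 in Fet-A/d5. In the remaining conditions it was 4755, 4548, 6041 and 5461 in HSA + SB/d5, 4020.4, 4124, 5061 and 5066 in HSA + LDN/d5 and 4353, 4527, 5329.7 and 5344 in HSA + SB + LDN/d5. The Fet-A/d5 libraries were all above the HSA/d1 libraries and above 3 of the 4 HSA/d5 libraries, and overlapped with replicate 3 of HSA/d5. Within the ATP8-low and within the ATP8-high libraries, Fet-A/d5 was above HSA/d5 without overlap. HSA/d5 was above HSA/d1 in the same way, which was seen for 1 of the 10 genes and for 25% of all genes. By mean, ND5 was highest in Fet-A/d5 at 6291 ± 435 CPM (SD, n = 4), followed by HSA + SB/d5, HSA/d5, HSA + SB + LDN/d5, HSA + LDN/d5 and HSA/d1 at 4131 ± 850.4 CPM (SD, n = 4). Only the step from Fet-A/d5 to HSA + SB/d5 exceeded the SDs of both neighbours.

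ND3, a small subunit near the junction of the 2 arms of complex I, showed another pattern. Its CPM was 569, 496, 594 and 540.0 in HSA/d1, 461, 557, 596 and 489 in HSA/d5 and 503, 380.0, 556 and 522 in Fet-A/d5. It was 470.2, 523, 526 and 501 in HSA + SB/d5, 448, 543, 518 and 489 in HSA + LDN/d5 and 461, 575, 528 and 477 in HSA + SB + LDN/d5. All conditions overlapped, and the lowest library was replicate 2 of Fet-A/d5. The means descended from HSA/d1 (549.9 ± 42.2 CPM, SD, n = 4) through HSA/d5, HSA + SB + LDN/d5, HSA + SB/d5 and HSA + LDN/d5 to Fet-A/d5 (490.4 ± 76.7 CPM, SD, n = 4), and no step exceeded the SDs of both neighbours. ND4 ranged from 3271 to 5085 CPM over all libraries, with its highest mean in Fet-A/d5 and its lowest in HSA/d1. ND2 ranged from 1018 to 2456 CPM and had its lowest mean in Fet-A/d5.

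CYTB encodes cytochrome b, the subunit of complex III that oxidises ubiquinol. In HSA/d1 it was at 2562, 2257, 2227 and 1902 CPM, in HSA/d5 at 2154, 2686, 1967 and 1787 CPM and in Fet-A/d5 at 2083, 1612, 1855 and 1654 CPM. In HSA + SB/d5 it was at 2225, 2465, 1765 and 1777 CPM, in HSA + LDN/d5 at 2138, 2661, 1853 and 1849 CPM and in HSA + SB + LDN/d5 at 2357, 2614, 1811 and 1672 CPM. The conditions overlapped, and in all of them except Fet-A/d5 the ATP8-low libraries were above the ATP8-high libraries. Fet-A/d5 had the lowest mean, 1801 ± 216 CPM (SD, n = 4), below HSA + SB/d5, HSA + SB + LDN/d5, HSA + LDN/d5, HSA/d5 and, at the top, HSA/d1 with 2237 ± 269.7 CPM (SD, n = 4). No step in this order exceeded the SDs of both neighbours.

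Complex IV passes electrons from cytochrome c to oxygen. COX1 encodes its catalytic subunit, in which oxygen is reduced. In HSA/d1 the 4 libraries were at 15122, 13512, 17154 and 17019 CPM, in HSA/d5 at 14458, 14875, 21725 and 15588 CPM and in Fet-A/d5 at 27158, 24403, 23332 and 27774 CPM. The remaining conditions were at 18486, 19074, 21691 and 18814 CPM (HSA + SB/d5), 14034, 14074, 16129.9 and 15917 CPM (HSA + LDN/d5) and 16498, 15765, 18567 and 18668 CPM (HSA + SB + LDN/d5). Every Fet-A/d5 library was above every library of the other 5 conditions. The share of all genes separated from all 5 at once was not counted. Against single conditions, such a separation upwards was seen for 11.6% of all genes (HSA/d5), 13.8% (HSA + SB/d5) and 17.8% (HSA/d1). Replicate 3 of HSA/d5 stood far above the other 3 libraries of its condition, at the level of the highest HSA + SB/d5 library. By mean, Fet-A/d5 (25667 ± 2138 CPM, SD, n = 4) was followed by HSA + SB/d5 (19516 ± 1469.6 CPM, SD, n = 4), HSA + SB + LDN/d5, HSA/d5, HSA/d1 and HSA + LDN/d5 (15039 ± 1140.5 CPM, SD, n = 4). The steps from Fet-A/d5 to HSA + SB/d5 and from there to HSA + SB + LDN/d5 exceeded the SDs of both neighbours, and the others did not.

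COX3 encodes another core subunit of complex IV. Its CPM was 6759.9, 6141, 8146 and 7699 in HSA/d1, 5282, 5736, 8350.0 and 6635 in HSA/d5 and 7466, 6751, 8855 and 9417 in Fet-A/d5. It was 6118, 6092, 7979 and 7282 in HSA + SB/d5, 5183, 5647, 6917 and 6753 in HSA + LDN/d5 and 5990.2, 6005, 7316 and 7039 in HSA + SB + LDN/d5. All 4 Fet-A/d5 libraries were above replicates 1, 2 and 4 of HSA/d5, and replicate 3 of HSA/d5 lay among them. COX3 had its highest mean in Fet-A/d5 (8122 ± 1228 CPM, SD, n = 4), then in HSA/d1, HSA + SB/d5, HSA + SB + LDN/d5, HSA/d5 and HSA + LDN/d5 (6125 ± 844 CPM, SD, n = 4), with no step beyond the SDs of both neighbours. COX2, whose product receives the electrons from cytochrome c, ranged from 2594 to 4796 CPM over all libraries and also had its highest mean in Fet-A/d5.

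ATP6 encodes the subunit of complex V that forms the proton path through the membrane. The HSA/d1 libraries were at 7139, 6476, 7022 and 6167 CPM, the HSA/d5 libraries at 5164, 6279, 6380.2 and 5097 CPM and the Fet-A/d5 libraries at 7476, 6856, 7158 and 7129.8 CPM. HSA + SB/d5 was at 5782, 6391, 6064 and 5583 CPM, HSA + LDN/d5 at 5149, 6133, 5494 and 5386 CPM and HSA + SB + LDN/d5 at 5839, 6197, 5664 and 5473 CPM. The Fet-A/d5 libraries were above all other libraries of maturation day 5 and overlapped with HSA/d1, and 3 of the 4 HSA/d1 libraries were above all HSA/d5 libraries. How many genes of the whole table lay above all other day 5 libraries with fetuin-A was not counted. Against HSA/d5 alone it was 11.6% and against HSA + SB/d5 alone 13.8%. In the order of means, Fet-A/d5 (7155 ± 254 CPM, SD, n = 4) stood before HSA/d1 (6701 ± 459 CPM, SD, n = 4), HSA + SB/d5, HSA + SB + LDN/d5, HSA/d5 and HSA + LDN/d5 (5540.3 ± 421 CPM, SD, n = 4), and only the step from HSA/d1 to HSA + SB/d5 exceeded the SDs of both neighbours.

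**Figure D1:**
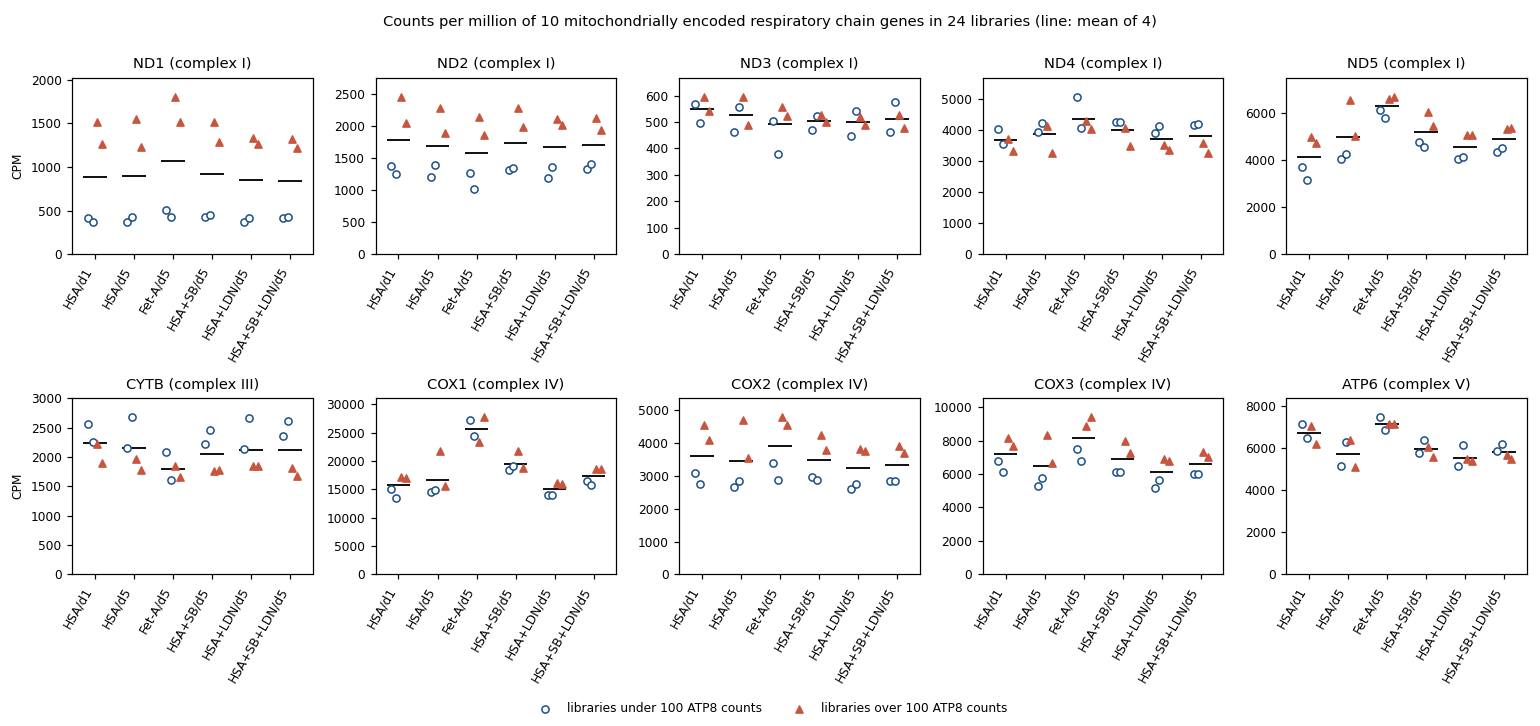
CPM of each of the 10 genes (vertical axis, from 0) in every library of the 6 conditions, with circles for the 12 libraries under 100 ATP8 counts, triangles for the 12 libraries over 100 ATP8 counts, and a line at the mean of 4. COX1 in Fet-A/d5 (23332 to 27774 CPM) lies above all other conditions, a separation whose share among all genes was not counted. ND1 divides into 367 to 506 CPM in circles and 1218 to 1807 CPM in triangles.

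The first comparison asks what maturation in albumin changed between day 1 and day 5. ATP6 fell, and none of the other 9 genes passed the test. For 3 of the HSA/d1 libraries ATP6 was above all 4 HSA/d5 libraries, and it was the only subunit gene of complex V in the list. Calls were thus made for 0 of 10 genes higher, where 18.9% of all genes tested were called higher, and for 1 of 10 lower, where 18.7% were called lower. Both edgeR, at an unadjusted p below 0.05, and the Wald test of DESeq2 gave 1 of 10 in this comparison. Over all genes, 6959 of 14842 had such a p in edgeR, and DESeq2 called 5897. The study's second condition for a call, an absolute log2 fold change above 1, was met by none of the 10 genes in this or any other comparison.

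The log2 fold change of ATP6 was -0.30 (SE 0.0921, adjusted p = 0.0135 in the quasi-likelihood test of edgeR), with 2 of the 4 HSA/d5 libraries below all HSA/d1 libraries. In complex I, ND5 had a log2 fold change of 0.19 (SE 0.144, adjusted p = 0.306 in edgeR) and ND3 of -0.14 (SE 0.103, adjusted p = 0.293 in edgeR). CYTB of complex III was at -0.14 (SE 0.172, adjusted p = 0.550 in edgeR). For complex IV, COX3 gave -0.22 (SE 0.140, adjusted p = 0.230 in edgeR) and COX1 0.01 (SE 0.119, adjusted p = 0.945 in edgeR). The remaining 4 genes, ND1, ND2, ND4 and COX2, lay between -0.14 and 0.00 with all libraries. With the covariate for the kind of library, 2 of 10 genes were called lower (23.4% of all genes), ATP6 (log2 fold change -0.30, adjusted p = 0.00730 in edgeR) and COX3 (-0.23, adjusted p = 0.0224 in edgeR). The block by sequence gave the same 2 calls (27.4% of all genes lower), ATP6 (-0.31, adjusted p = 0.00273 in edgeR) and COX3 (-0.23, adjusted p = 0.0141 in edgeR). ATP6 was not called within the ATP8-low libraries alone (-0.36, adjusted p = 0.0769 in edgeR), where COX3 was (-0.33, adjusted p = 0.0469 in edgeR), nor within the ATP8-high libraries alone (-0.23, adjusted p = 0.264 in edgeR). Over the 15 alternatives run in edgeR or DESeq2, the adjusted p ran from 0.00229 to 0.264 for ATP6 and from 0.0141 to 0.607 for COX3. Without replicate 3 of HSA/d5, edgeR also called both, ATP6 at -0.36 (adjusted p = 0.00785) and COX3 at -0.36 (adjusted p = 0.0445). ND1 was then at -0.45, COX2 at -0.33 and ND2 at -0.31, and none of the 3 was called. The call of ATP6 was lost without replicate 1 of HSA/d1 (-0.23, adjusted p = 0.0678 in edgeR) and without replicate 4 of HSA/d5 (-0.25, adjusted p = 0.0562 in edgeR). Scaling by column totals alone, where the median log2 fold change of all genes was 0.06, called 3376 genes higher and 1839 lower, against 2800 and 2774 with the scaling used here.

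Fetuin-A was compared with albumin at day 5, to see how NICCs matured in fetuin-A differ. COX1, COX3, ND5 and ATP6 rose, that is 4 of the 10 genes, and they belong to complexes I, IV and V. COX1 averaged 25667 ± 2138 CPM (SD, n = 4) with fetuin-A and 16662 ± 3407 CPM (SD, n = 4) with albumin. ATP6 averaged 7155 ± 254 CPM (SD, n = 4) with fetuin-A and 5730.2 ± 694 CPM (SD, n = 4) with albumin. Among all genes tested 18.3% were called higher, and 17.3% were called lower, where 0 of the 10 genes were. An unadjusted p below 0.05 in edgeR was found for the same 4 genes, and the Wald test of DESeq2 also called 4. Over all genes, 6686 of 14842 had such a p in edgeR, and DESeq2 called 5586. The 2 groups of 4 libraries did not overlap in CPM for 2 of the 10 genes, COX1 and ATP6, a separation upwards that 11.6% of all genes showed.

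In complex IV, COX1 rose by a log2 fold change of 0.68 (SE 0.119, adjusted p = 1.82e-04 in edgeR) and was higher in 4 of 4 libraries than in any HSA/d5 library. COX3 rose by 0.38 (SE 0.141, adjusted p = 0.0426 in edgeR), and 2 of the 4 Fet-A/d5 libraries were above all HSA/d5 libraries. COX2 did not pass the test, at 0.23 (SE 0.203, adjusted p = 0.395 in edgeR). The proton path subunit ATP6 rose by 0.38 (SE 0.0922, adjusted p = 0.00329 in edgeR), again in 4 of 4 libraries above any HSA/d5 library. In complex I, ND5 rose by 0.40 (SE 0.144, adjusted p = 0.0364 in edgeR), with 2 of the 4 Fet-A/d5 libraries above all HSA/d5 libraries. ND4 (0.22), ND1 (0.30), ND2 (-0.06) and ND3 (-0.05) were not called. The same holds for CYTB, whose log2 fold change was negative, -0.20 (SE 0.172, adjusted p = 0.385 in edgeR).

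With the covariate for the kind of library, 7 of 10 genes were called higher, as were 22.8% of all genes. COX1 was then at 0.69 (SE 0.104, adjusted p = 2.59e-05 in edgeR), and the genes gained were ND1 (0.29, adjusted p = 0.0160 in edgeR), COX2 (0.23, adjusted p = 0.0295 in edgeR) and ND4 (0.22, adjusted p = 0.0400 in edgeR). The 3 genes not called in this fit were ND2, ND3 and CYTB. The block by sequence called the same 7 genes higher (26.9% of all genes), among the gained ones ND1 (0.29, adjusted p = 0.00195 in edgeR), COX2 (0.24, adjusted p = 0.00838 in edgeR) and ND4 (0.22, adjusted p = 0.0105 in edgeR). Over the 15 alternatives run in edgeR or DESeq2, the adjusted p ran from 1.72e-08 to 0.10996 for COX1, 1.00e-04 to 0.119 for ATP6, 2.61e-04 to 0.279 for ND5 and 2.95e-04 to 0.149 for COX3. For the genes gained it ran from 0.00152 to 0.925 for ND1, 0.00816 to 0.546 for COX2 and 0.0105 to 0.373 for ND4 in edgeR or DESeq2. Within the ATP8-low libraries alone, 2 against 2, edgeR called COX1 (0.87, adjusted p = 0.00106), ND5 (0.57, adjusted p = 0.00552) and COX3 (0.42, adjusted p = 0.0179), with ATP6 at 0.38 (adjusted p = 0.0613). Within the ATP8-high libraries alone it called 0 of the 10 genes, with COX1 at 0.49 (adjusted p = 0.10996 in edgeR), ATP6 at 0.35 (adjusted p = 0.119), COX3 at 0.32 (adjusted p = 0.149) and ND5 at 0.24 (adjusted p = 0.279). Over all genes, the ATP8-high fit called 2019, of which 45.5% were higher. The ATP8-low fit called 4886, of which 47.3% were higher. In both kinds of library, however, the 2 Fet-A/d5 libraries were above the 2 HSA/d5 libraries for these 4 genes, as they were for 16.2% of all genes.

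Replicate 3 of HSA/d5 lies closest to the Fet-A/d5 libraries. Without it, the log2 fold changes in edgeR were 0.83 for COX1 (adjusted p = 4.60e-06), 0.56 for ND5 (adjusted p = 0.00309), 0.52 for COX3 (adjusted p = 0.00539) and 0.43 for ATP6 (adjusted p = 0.00177). Of the genes not called, ND1 moved to 0.70 and COX2 to 0.42, and ND2 (0.12) and ND3 (0.02) turned positive, still without a call in edgeR. The calls of COX1 and ATP6 held with any of the 8 libraries left out, whereas those of COX3 and ND5 each depended on several libraries. COX3 was not called by edgeR without replicate 1 (0.29, adjusted p = 0.144), replicate 2 (0.32, adjusted p = 0.115) or replicate 4 of HSA/d5 (0.38, adjusted p = 0.0716). The same was found without replicate 3 (0.34, adjusted p = 0.0899 in edgeR) or replicate 4 of Fet-A/d5 (0.30, adjusted p = 0.132). ND5 lost its call in edgeR without replicate 1 (0.32, adjusted p = 0.125), replicate 2 (0.33, adjusted p = 0.109) or replicate 4 of HSA/d5 (0.40, adjusted p = 0.0675). It also lost it without replicate 1 (0.41, adjusted p = 0.0532 in edgeR), replicate 3 (0.38, adjusted p = 0.0654) or replicate 4 of Fet-A/d5 (0.37, adjusted p = 0.0794). All 4 genes kept a positive log2 fold change in every fit that was run. Scaling by column totals alone called 2065 genes higher and 3031 lower over the whole table, against 2712 and 2572 with the scaling used here.

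**Figure D2:**
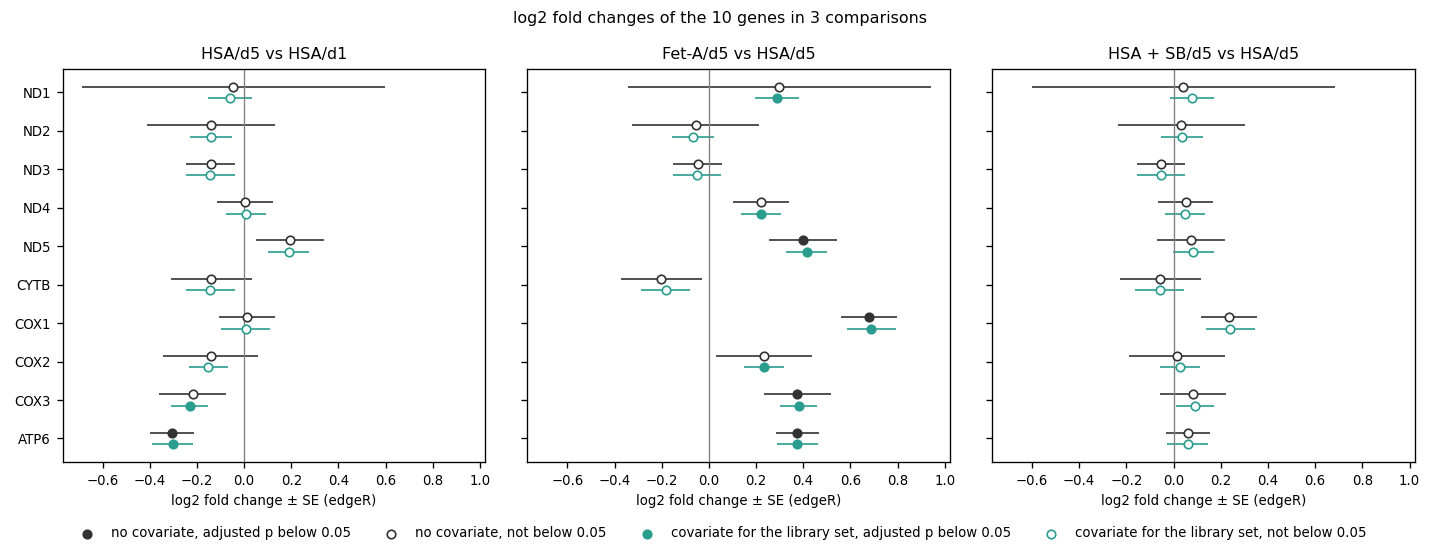
Log2 fold change with SE (horizontal axis) of each of the 10 genes in 3 comparisons, fitted by edgeR without and with the covariate for the kind of library, where filled points have an adjusted p below 0.05. With fetuin-A against albumin, COX1 (0.68), ND5 (0.40), COX3 (0.38) and ATP6 (0.38) are filled in both fits.

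SB431542, the inhibitor of TGFBR, was compared with albumin alone at the same day. None of the 10 genes was called. With all libraries, COX1 had the largest fold change, whereas without replicate 3 of HSA/d5 that of ND1 was larger. For COX1, 3 of the 4 HSA/d5 libraries were below all HSA + SB/d5 libraries, and replicate 3 of HSA/d5 was above them. In edgeR 0 of 10 genes were called higher (3.34% of all genes) and 0 lower (3.79% of all genes), with 0 at an unadjusted p below 0.05. DESeq2 called 0 as well, with 1 at an unadjusted p below 0.05. Over all genes, an unadjusted p below 0.05 was found for 3238 in edgeR and 3346 in DESeq2, which called 1493. COX1 was at 0.23 (SE 0.119, adjusted p = 0.262 in edgeR), and at 0.39 (adjusted p = 0.0228 in edgeR) without replicate 3 of HSA/d5, where it was called. With the covariate for the kind of library it was at 0.24 (adjusted p = 0.129 in edgeR), and over the 15 alternatives its adjusted p in edgeR or DESeq2 ran from 0.0783 to 0.879. The other 9 genes lay between -0.06 (CYTB) and 0.08 (COX3) with all libraries. Leaving out replicate 3 of HSA/d5 widened this to between -0.10 (CYTB) and 0.45 (ND1), with ND5 at 0.23, COX3 at 0.23, ND2 at 0.21 and COX2 at 0.20, and edgeR called none of these 9.

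LDN alone and LDN with SB431542 left the 10 genes without a call. For HSA + LDN/d5 against HSA/d5, edgeR called 0 of 10 genes higher and 0 lower, as it did for 0% of all genes in either direction, with 0 of the 10 at an unadjusted p below 0.05 in edgeR and in DESeq2, which also called 0. All 10 log2 fold changes were negative, from -0.16 for COX1 to -0.03 for CYTB and -0.03 for ND2, and each was smaller than 2 SE. For HSA + SB + LDN/d5 against HSA/d5 they ran from -0.08 (ND1) to 0.07 (COX1), and edgeR called 0 of 10 higher (1.16% of all genes) and 0 lower (1.95%), with 0 at an unadjusted p below 0.05 in edgeR and in DESeq2, which called 0. Without replicate 3 of HSA/d5, edgeR also called 0 of 10 in both comparisons, with COX1 at 0.00 and 0.22 and ND1 at 0.32 and 0.33. For LDN alone, 5 of the 10 log2 fold changes were then positive, those of ND1, ND2 (0.15), COX2 (0.09), COX3 (0.05) and ND5 (0.03), so the common sign depended on this library. Over all genes, an unadjusted p below 0.05 in edgeR was found for 180 with LDN alone and for 2249 with both additions. DESeq2 called 0 and 774 genes in the same order. These 2 comparisons and that of SB431542 alone share the HSA/d5 libraries.

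SB431542 was also compared in the presence of LDN, with HSA + LDN/d5 as the control. COX1 was at 0.22 (SE 0.119, adjusted p = 0.424 in edgeR), and 3 of the 4 HSA + SB + LDN/d5 libraries were above all HSA + LDN/d5 libraries. Within both kinds of library COX1, COX3 and ND5 were above HSA + LDN/d5 without overlap, 3 of 10 genes where 9.08% of all genes were. In edgeR 0 of 10 genes were called higher (0.532% of all genes) and 0 lower (1.21%), with 0 at an unadjusted p below 0.05. DESeq2 called 0 and had 1 at an unadjusted p below 0.05. Over all genes, an unadjusted p below 0.05 was found for 2031 in edgeR and 2104 in DESeq2, which called 487. The interaction, that is the difference between the effect of SB431542 with and without LDN, gave 0 of 10 genes higher and 0 lower in edgeR (0% of all genes in either direction). None of the 10 had an unadjusted p below 0.05 in edgeR or in DESeq2, which called 0, and the largest absolute difference was 0.10 (ND3). The size of these differences depended on replicate 3 of HSA/d5, without which ND1 was at -0.44, ND2 at -0.17, COX1 at -0.16 and COX2 at -0.15, again with 0 calls in edgeR.

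Whether fetuin-A and SB431542 differ was tested directly between their libraries. COX1 and ATP6 were higher with fetuin-A, without overlap between the 2 groups of 4 libraries, a separation upwards that 13.8% of all genes showed. In edgeR 2 of 10 genes were called higher with fetuin-A (19.4% of all genes) and 0 lower (19.6%), with 3 at an unadjusted p below 0.05, and DESeq2 called 2. Over all genes, 7027 of 14842 had an unadjusted p below 0.05 in edgeR, and DESeq2 called 6051. The log2 fold change was 0.45 for COX1 (SE 0.119, adjusted p = 0.00532 in edgeR, 4 of 4 libraries) and 0.31 for ATP6 (SE 0.0922, adjusted p = 0.0102 in edgeR, 4 of 4 libraries). ND5 (0.33, SE 0.144, adjusted p = 0.0805 in edgeR) and COX3 (0.29, SE 0.141, adjusted p = 0.106 in edgeR) missed the threshold. With the covariate for the kind of library, 5 of 10 were called higher (23.6% of all genes). The genes gained were ND5 (0.33, adjusted p = 0.00351 in edgeR), COX3 (0.29, adjusted p = 0.00515 in edgeR) and COX2 (0.21, adjusted p = 0.04995 in edgeR). The block by sequence called 7 of 10 higher (27.4% of all genes), adding ND1 (0.21, adjusted p = 0.0156 in edgeR) and ND4 (0.17, adjusted p = 0.0388 in edgeR) to these 5. Over the 15 alternatives in edgeR or DESeq2, the adjusted p ran from 2.82e-04 to 0.165 for COX1, 0.00107 to 0.157 for ATP6, 0.00173 to 0.211 for ND5, 0.00285 to 0.207 for COX3, 0.0181 to 0.567 for COX2, 0.0156 to 0.950 for ND1 and 0.0388 to 0.405 for ND4. Without replicate 3 of HSA + SB/d5, ND5 was called too (0.40, adjusted p = 0.0495 in edgeR). Within the ATP8-low libraries alone, edgeR called COX1 and ND5 and not ATP6 (0.28, adjusted p = 0.157). Within the ATP8-high libraries alone, edgeR called 0 of the 10 genes, with COX1 at 0.38 (adjusted p = 0.165). Over all genes, the ATP8-high fit called 3243, of which 48.1% were higher. The ATP8-low fit called 4587, of which 48.5% were higher.

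Fetuin-A was further set against the start of maturation. COX1 and ND5 were above HSA/d1 in all 4 Fet-A/d5 libraries, as were 17.8% of all genes, while ATP6, which fell during maturation in albumin, overlapped with its level at the start. In edgeR 2 of 10 genes were called higher (21.7% of all genes) and 0 lower (22.6%), with 2 at an unadjusted p below 0.05, and DESeq2 called 2. Over all genes, 7543 of 14842 had an unadjusted p below 0.05 in edgeR, and DESeq2 called 6801. COX1 was higher by 0.69 (SE 0.119, adjusted p = 9.74e-05 in edgeR, 4 of 4 libraries) and ND5 by 0.59 (SE 0.145, adjusted p = 0.00238 in edgeR, 4 of 4 libraries). ATP6 was at 0.07 (SE 0.0921, adjusted p = 0.566 in edgeR) and CYTB at -0.34 (SE 0.172, adjusted p = 0.115 in edgeR). With the covariate for the kind of library, 4 of 10 were called higher (25.7% of all genes), adding ND4 (0.23, adjusted p = 0.0301 in edgeR) and ND1 (0.23, adjusted p = 0.0454 in edgeR). In the same fit 1 of 10 was called lower (26.5% of all genes), CYTB at -0.33 (adjusted p = 0.0122 in edgeR), and its Fet-A/d5 libraries were below HSA/d1 within both kinds of library, as were those of 23% of all genes. The block by sequence gave the same 4 higher (29.2% of all genes) and 2 lower (29.5%), CYTB (-0.33, adjusted p = 0.00840 in edgeR) and ND2 (-0.20, adjusted p = 0.0203 in edgeR). Over the 15 alternatives in edgeR or DESeq2, the adjusted p ran from 4.38e-09 to 0.0431 for COX1, 3.42e-06 to 0.0360 for ND5, 0.00759 to 0.243 for ND4, 0.00904 to 0.843 for ND1, 0.00840 to 0.277 for CYTB and 0.0203 to 0.652 for ND2.

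The comparisons with HSA/d5 share its 4 libraries, so the values of a gene in them are not independent. COX1 was at 0.01 for maturation, 0.68 for fetuin-A, 0.23 for SB431542 and -0.16 for LDN. ATP6 was at -0.30, 0.38, 0.06 and -0.06 in the same order, and ND5 at 0.19, 0.40, 0.07 and -0.13. CYTB was at -0.14, -0.20, -0.06 and -0.03.

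Summed over the 10 genes, the share of all counts was 4.48, 3.99, 5.23 and 4.88% in replicates 1 to 4 of HSA/d1, 3.97, 4.33, 5.82 and 4.45% in HSA/d5 and 6.10, 5.41, 6.14 and 6.52% in Fet-A/d5. It was 4.68, 4.80, 5.62 and 4.995% in HSA + SB/d5, 3.90, 4.19, 4.68 and 4.58% in HSA + LDN/d5 and 4.42, 4.45, 5.01 and 4.88% in HSA + SB + LDN/d5. The Fet-A/d5 libraries were the highest of each kind of library, and replicate 3 of HSA/d5 was far above the other 3 libraries of its condition. With fetuin-A the share averaged 6.04% ± 0.459 (SD, n = 4), and with albumin at the same day it averaged 4.64% ± 0.810 (SD, n = 4). COX1 makes up much of this difference, since without it the means were 3.48% ± 0.381 (SD, n = 4) and 2.98% ± 0.475 (SD, n = 4). The sum is a description and was not tested.

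**Figure D3:**
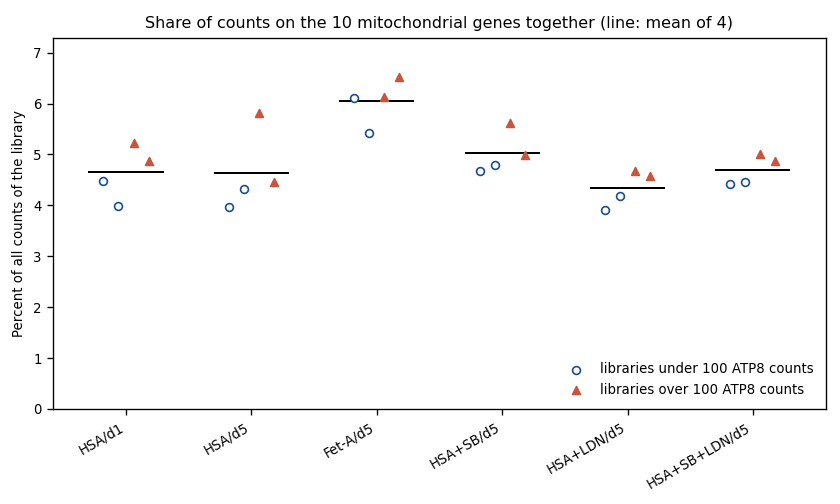
Percent of all counts of a library that fell on the 10 genes (vertical axis, from 0) in each library of the 6 conditions, with circles for libraries under 100 ATP8 counts, triangles for libraries over 100 ATP8 counts and a line at the mean of 4. Fet-A/d5 runs from 5.41% to 6.52% and HSA/d5 from 3.97% to 5.82%.

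Of the other mitochondrial protein genes, ND6 lies on the opposite strand, so that its counts are uncertain where the strand setting of the counting is not stated. For fetuin-A against albumin, ND6 had a log2 fold change of 0.41 (SE 0.230, adjusted p = 0.172 in edgeR), and 0.45 (adjusted p = 3.06e-04 in edgeR) with the covariate for the kind of library. It was also 0.45 (adjusted p = 1.03e-04 in edgeR) with the block by sequence. ND4L, which overlaps ND4, was at 0.14 (SE 0.189, adjusted p = 0.603 in edgeR). ATP8 could not be read across both kinds of library. Because ATP8 overlaps ATP6 and ND4L overlaps ND4, reads in the overlaps may have been assigned to either gene or to none, which also makes ATP6 and ND4 less certain, and copies of mitochondrial sequence in the nuclear genome may share reads with any of the 10.

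The nuclear partners of these subunits were followed in lists of 37 complex I, 4 complex II, 9 complex III, 10 complex IV and 15 complex V genes, of which 26, 4, 6, 8 and 9 could be matched by symbol and tested. During maturation in albumin, 17 of the 26 complex I genes fell and 0 rose, among them NDUFS8 (-0.43) and NDUFA9 (-0.43), and the median of the list was -0.25 where that over all genes was -0.01. In complex II 1 of 4 fell, SDHA (-0.30), with a list median of -0.17, and in complex III 1 of 6, UQCR10 (-0.54), with a list median of -0.13. Complex IV had 6 of 8 lower, such as COX4I1 (-0.54) and COX6A1 (-0.36), at a list median of -0.33. In complex V 5 of 9 were lower, ATP5PO (-0.39) and ATP5PF (-0.36) among them, at a list median of -0.20. No gene of these 5 lists was called higher by edgeR during maturation, and 18.7% of all genes were called lower. With the block by sequence (27.4% of all genes lower), 1 complex I gene was called higher, and the lower counts that moved most were 3 of 4 in complex II and 2 of 6 in complex III. Among the 10 mitochondrially encoded genes, ATP6 of complex V was called lower without the block, and ATP6 and COX3 of complex IV with it.

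With fetuin-A the same lists held calls in both directions. In complex I 6 of 26 genes rose and 2 fell, including the iron-sulphur subunit NDUFS8 (0.56) and NDUFB1 (-0.31), with a list median of 0.11 beside 0.00 over all genes. Complex II, which has no mitochondrial subunit, had 2 of 4 higher, SDHA (0.49) and SDHD (0.33), at a list median of 0.30. In complex III 5 of 6 rose, led by UQCRFS1 (0.33) and UQCRC2 (0.31), at a list median of 0.28. For complex IV 4 of 8 rose, COX4I1 (0.42) and COX5A (0.39) most, and 1 fell, at a list median of 0.19. Complex V had 4 of 9 higher, ATP5F1D (0.53) and ATP5PO (0.37) most, and 1 lower, also at 0.19. CYTB, the only mitochondrial gene of complex III, was not called beside the 5 nuclear genes of complex III that rose. Over all genes 18.3% were called higher and 17.3% lower, shares to be read beside each of these counts. With the block by sequence (26.9% of all genes higher), 10 of 26 complex I genes were higher.

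SB431542 raised 8 of 26 complex I genes, NDUFS8 (0.41) and NDUFA10 (0.35) most, at a list median of 0.19 beside 0.00 over all genes. It raised SDHC (0.26) in complex II, UQCR11 (0.39) in complex III, COX5A (0.33) and COX7B (0.21) in complex IV and 4 of 9 genes in complex V, with ATP5MC1 (0.34) and ATP5MC3 (0.29) most. The list medians of these 4 complexes were 0.20, 0.19, 0.20 and 0.21, and edgeR called no gene of the 5 lists lower, where 3.34% of all genes were called higher. With the block by sequence (12.5% of all genes higher), 17 of 26, 3 of 4, 5 of 6, 6 of 8 and 7 of 9 genes of complexes I to V were higher. Tested directly, fetuin-A gave 9 of 26 complex I genes lower and 0 higher than SB431542, at a list median of -0.14, where 19.6% of all genes were called lower. Of the 5 complex I genes among the 10, none was called in that test without a covariate, and ND1, ND4 and ND5 were called higher with the block by sequence. In the same block fit ND6, which is not among the 10, was also called higher (0.36, adjusted p = 6.88e-04 in edgeR).

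Genes that maintain and transcribe mitochondrial DNA or process its RNA were a list of 25, of which 22 were tested. During maturation 9 fell and 0 rose, with the helicase TWNK (-0.52) and the DNA-binding protein SSBP1 (-0.43) lowest, at a list median of -0.16, where 18.7% of all genes fell and 18.9% rose. Fetuin-A raised 4 and lowered 0, TWNK (0.53) and the transcription factor TFB2M (0.42) most, at a list median of 0.07. These 4 of 22 are no more than the 18.3% called higher over all genes. SB431542 lowered 1, the topoisomerase TOP1MT (-1.03), and raised 0, at a list median of 0.02, beside 3.79% lower and 3.34% higher over all genes. Of 7 regulators of mitochondrial biogenesis, all tested, maturation raised 2, PPARGC1A (0.53) most, and lowered ESRRA (-0.38), at a list median of -0.04. Fetuin-A raised the coactivator PPARGC1A (1.05) and the nuclear receptor ESRRA (0.95) and lowered 0, at a list median of 0.06, beside 18.3% higher and 17.3% lower over all genes. For SB431542, edgeR called 0 of the 7, at a list median of 0.22. With the block by sequence, fetuin-A raised 9 and lowered 1 of the 22 genes and maturation raised 1, while of the 7 regulators maturation lowered 3, fetuin-A lowered 1, and SB431542 raised 2 and lowered 1. The shares over all genes in this fit were 27% higher and 27.4% lower for maturation, 26.9% higher and 26.6% lower for fetuin-A and 12.5% in each direction for SB431542.

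Glycolysis, which supplies pyruvate to the mitochondria, was a list of 19 genes, all tested. Maturation lowered 8, with the lactate dehydrogenase LDHA (-1.21) lowest, at a list median of -0.26, beside 18.7% lower over all genes. Fetuin-A raised 7 and lowered 0, the hexokinases HK2 (1.56) and HK1 (0.73) most, at a list median of 0.34, beside 18.3% higher and 17.3% lower over all genes. For SB431542, edgeR called 0, at a list median of 0.06. In the fit with the block, fetuin-A lowered 3 of the 19 (26.6% of all genes) and SB431542 raised 2 (12.5%). All genes named from the lists had, without the block, an adjusted p below 0.05 in edgeR.

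Markers of several cell types moved with the same comparisons, and their part in the values of the mitochondrial genes was not tested. Beside the marker counts stand the shares of all genes called, 18.9% higher and 18.7% lower for maturation and 18.3% and 17.3% for fetuin-A. The alpha cell list (3 of 3 genes matched, GCG most abundant) summed to 3169, 2907, 3805 and 4639 CPM in HSA/d1, 24859, 15184, 16147 and 23765 CPM in HSA/d5 and 1388, 976, 8378 and 3953 CPM in Fet-A/d5. All 3 genes rose during maturation and fell with fetuin-A, GCG by a log2 fold change of 2.40 (SE 0.449, adjusted p = 4.24e-04 in edgeR) and -2.41 (SE 0.449, adjusted p = 3.29e-04 in edgeR). The pan-endocrine list (4 of 5 matched, CHGA most abundant) summed to 784, 830.4, 1410.0 and 1631 CPM in HSA/d1, 5848, 5553, 8963 and 10131 CPM in HSA/d5 and 1323, 962, 5842 and 2577 CPM in Fet-A/d5, with 4 genes higher during maturation and 3 lower with fetuin-A. The beta cell list (3 of 6 matched, INS most abundant) summed to 341, 404, 960.4 and 1441 CPM, 1538, 472, 2802 and 5888 CPM and 307, 179, 1816 and 927 CPM in the same conditions. Here NKX6-1 rose during maturation and MAFA fell with fetuin-A, while INS missed the threshold in both without the block, and the ATP8-high libraries had more of this list than the ATP8-low libraries in each of the 3 conditions. Delta cell genes (2 of 2 matched, SST most abundant) summed to 530.0, 586, 782 and 681 CPM, 2935, 3022, 2676 and 2277 CPM and 867, 603, 1510.4 and 709 CPM, with 2 higher during maturation and 1 lower with fetuin-A. PPY, the single PP cell gene, was at 208, 88.6, 159 and 201 CPM, 1283, 409, 741 and 1058 CPM and 300.1, 91.5, 505 and 316 CPM, and it rose during maturation and fell with fetuin-A.

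Other lists covered non-endocrine cells. The same shares of all genes apply to them, and for SB431542 the shares were 3.34% higher and 3.79% lower. The mesenchymal and stellate list (6 of 6 matched, COL3A1 most abundant) summed to 6187, 5241, 9219 and 9216 CPM in HSA/d1, 5839, 6342, 1766 and 7436 CPM in HSA/d5 and 1630.1, 1119, 1264 and 2794 CPM in Fet-A/d5. Fetuin-A lowered 4 of its 6 genes, COL3A1 by a log2 fold change of -2.91 (SE 0.438, adjusted p = 3.64e-05 in edgeR), and replicate 3 of HSA/d5, the library with high COX1, was also far below the others of its condition in this sum. Acinar genes (4 of 7 matched, CPA1 most abundant) summed to 25841, 15759, 14142 and 6980.5 CPM, 11918, 4844, 2886 and 952 CPM and 1943, 916, 863 and 116 CPM in the same order, with 1 lower during maturation and 2 lower with fetuin-A. Ductal genes (3 of 5 matched, CFTR most abundant) summed to 1595, 2062, 1833 and 1811 CPM, 1853, 2556, 2774 and 1531 CPM and 3352, 3134, 2972 and 2649 CPM, and fetuin-A raised CFTR by 0.87 (SE 0.196, adjusted p = 0.00173 in edgeR). The endothelial list (3 of 4 matched, PECAM1 most abundant) summed to 342, 255, 298 and 428 CPM in HSA/d5 and 585, 387, 576 and 863 CPM in HSA + SB/d5, with 1 gene higher with SB431542 and 0 called with fetuin-A. Immune genes (4 of 4 matched, CD68 most abundant) summed to between 12.2 and 47.4 CPM over all libraries, with 1 higher during maturation. Erythroid genes (2 of 3 matched, HBB most abundant) summed to between 0.253 and 2.97 CPM, with 1 lower during maturation and 1 higher with SB431542. Apart from the endothelial and erythroid lists, edgeR called 0 marker genes with SB431542.

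More markers were called by edgeR with the block by sequence, beside the changes of COX1, ATP6, ND5 and COX3. Over all genes this fit called 27% higher and 27.4% lower for maturation, 26.9% and 26.6% for fetuin-A and 12.5% each for SB431542. All 3 beta cell genes rose during maturation and fell with fetuin-A, INS by a log2 fold change of 1.47 (SE 0.319, adjusted p = 7.31e-04 in edgeR) and -1.79 (SE 0.324, adjusted p = 1.29e-04 in edgeR). During maturation all 4 acinar genes fell, as did 2 mesenchymal and stellate genes and 1 endothelial gene, and 1 ductal gene rose while 1 fell. With fetuin-A all 6 mesenchymal and stellate genes, all 4 pan-endocrine genes, 3 acinar and 2 endothelial genes fell. Of the delta cell and ductal genes, 1 and 2 rose and 1 each fell with fetuin-A, and 1 immune gene rose. With SB431542, 3 acinar, 3 endothelial and 1 immune gene rose, 1 mesenchymal and stellate gene rose and 1 fell, and 2 pan-endocrine genes, SST and PPY fell. The part of these cell types in the values of the mitochondrial genes was not tested.

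The 10 genes did not vary as a single block over the 24 libraries. Of their 45 pairs, 11 had a Pearson r of log2 CPM below 0, and the median r was 0.434. The highest was 0.951 for ND1 and ND2 and the lowest -0.706 for ND1 and CYTB, both across the division by ATP8. Taken as deviations from the means of the ATP8-low and ATP8-high libraries, a measure added after the data were seen, these pairs had 0.479 and 0.200. The extremes were then 0.960 for ND1 and ND4 and -0.409 for COX1 and CYTB, with a median of 0.602. By this measure 6 of the 45 pairs were below 0. Without regard to the division, the genes most like the mean log2 CPM of the 10 were LAP3, an aminopeptidase, with r = 0.883, ND6 with 0.882 and EMG1, a ribosome biogenesis factor, with 0.872 over 24 libraries. Spearman's rho was 0.855, 0.869 and 0.854, and the deviations gave 0.741, 0.720 and 0.672. By the deviations other genes ranked highest, BATF2 (0.900), LIG4 (0.882) and PLS1 (0.865), so the ranking changed once the division by ATP8 was removed. These values are descriptions over libraries that share conditions and the same division.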

How the data were processed

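Raw counts per gene were deposited by the authors in 1 table, whose 30 listed samples are 24 libraries, 6 of them listed 2 times and used in a single copy here. Per the labels, strand-specific libraries were made from poly(A)-enriched RNA and sequenced as single reads of 75 bases. The submitters' processing notes name FastQC 0.11.8, Trim Galore 0.5, STAR 2.6.1, Picard, featureCounts 1.6.2 and DESeq2 1.22.1. The genome build, the annotation and the strand setting of the counting are not given in the sources used here. Column totals ran from 18883734 to 24346119 (median 20924473). A chi-square comparison of counts found no pair of libraries of a condition within sampling noise. Of 25880 identifiers, 14857 were paired with a symbol.

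In R 4.3.3, 14842 genes passed filterByExpr and were fitted with edgeR 4.0.16 (TMM scaling, quasi-likelihood test, 1 coefficient per condition, Benjamini-Hochberg adjustment over all of them). The script was tested on simulated data. P-values measure the spread between libraries, since no label ties a library to an animal. Alternatives were the size factors of DESeq2, upper-quartile scaling, column totals alone, library sizes without the 10 genes, the Wald test of DESeq2 1.42.0, no filter, a minimum of 10 counts in every library, only the conditions compared, 3 surrogate variables (sva 3.50.0), libraries listed 2 times as a covariate or left out, the additional fold change threshold of 1, and each library left out. The covariate for the 2 kinds of library, the fits within each kind, deviations from the means of the kinds and the interaction with the kind were added after the data were seen, as was the limit of 100 ATP8 counts, with no library between 13 and 3859. A block for the 4 sequences of library codes was added as well, after the codes were seen to hold every condition in each sequence. Deviations of log2 CPM from the condition means had an r between 0.257 and 0.767 in the 60 pairs of libraries of the same sequence and between -0.633 and 0.292 in the 216 other pairs, and all 24 libraries were closest to a library of their own sequence. Log2 CPM used a prior count of 2.

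The 10 genes, the lists and the markers were chosen with earlier results of these data known. In full detail stand, per complex, the genes with the smallest adjusted p for maturation and for fetuin-A and the most abundant gene. ND1 was added for the division of the libraries after its values were seen. From each list up to 2 called genes with the largest absolute log2 fold change were named, for likeness the 3 genes with the highest r, also by deviations from the means of the kinds, and the pairs with the highest and lowest r. ND1 with ND4 and COX1 with CYTB, and marker genes beyond the most abundant, were named after their values were seen.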

Additional observations from a re-analysis of the deposited data

Results flagged for a closer look

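COX1 in replicate 3 of HSA/d5, at 21725 CPM, lay far from the other 3 libraries of its condition, which were between 14458 and 15589 CPM. Its distance to the nearest of them was 0.845 of the whole range of the 4 values, above the limit of Dixon's test for a single distant value. This was the only such value among 72 groups of 4 examined, and chance alone gives about 1 in 20 groups. In the same library the 10 genes together took 5.82% of all counts and the mesenchymal and stellate genes summed to 1766 CPM, against between 5839 and 7436 CPM in the others of its condition. Whether these values are connected was not tested. Calls without this library, and the fold changes of some of the genes, are given with the comparisons that use HSA/d5.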

How the results depend on the processing

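No log2 fold change of the 10 genes that was called reversed its sign in any alternative, and each comparison was refitted under 16 alternatives beside the libraries left out. The number of called genes for maturation, 1, was 0 with the additional fold change threshold, with only the conditions compared and with only the ATP8-high libraries, 1 with COX3 in place of ATP6 in the ATP8-low libraries, and 2 with 3 surrogate variables, with only libraries listed a single time (adding ND3 at -0.33, adjusted p = 0.0270 in edgeR) with the covariate for the kind of library and with the block by sequence of library codes. For fetuin-A the number, 4, was 0 with the fold change threshold and with only the ATP8-high libraries, 2 with upper-quartile scaling, column totals alone, no filter and only the conditions compared, 3 without COX3 with a minimum of 10 counts (adjusted p = 0.0559 in edgeR) and with the covariate for libraries listed 2 times (0.0540), 3 without ATP6 in the ATP8-low libraries, and 7 with 3 surrogate variables, with the covariate and with the block. For fetuin-A against SB431542 the number, 2, was 0 with the fold change threshold and with only the ATP8-high libraries, 6 with 3 surrogate variables, 5 with the covariate, 7 with the block and 2 with ND5 in place of ATP6 in the ATP8-low libraries. For fetuin-A against HSA/d1 it was 0, 6, 5 and 6 with the fold change threshold, 3 surrogate variables, the covariate and the block. The block changed no other number of called genes. Among all genes, the fit with 3 surrogate variables called 7560 for maturation and 7322 for fetuin-A, against 5574 and 5284 in the main fit. It called 7802 for fetuin-A against SB431542 and 8715 for fetuin-A against HSA/d1, where the main fit called 5781 and 6579. Over 15 alternatives in edgeR or DESeq2, ATP6 was called for maturation in 12, and with fetuin-A COX1 was called in 14, ATP6 in 13, ND5 in 10 and COX3 in 8. With each library left out, the numbers ranged from 0 to 2 for maturation, from 2 to 4 for fetuin-A, from 0 to 1 for SB431542, from 2 to 3 for fetuin-A against SB431542, from 2 to 2 for fetuin-A against HSA/d1, and from 0 to 0 for both comparisons of LDN with HSA/d5, for SB431542 in the presence of LDN and for the interaction. The summed share ranged from 4.45% to 4.86% in HSA/d1, 4.25% to 4.87% in HSA/d5, 5.89% to 6.25% in Fet-A/d5, 4.83% to 5.14% in HSA + SB/d5, 4.22% to 4.48% in HSA + LDN/d5 and 4.58% to 4.78% in HSA + SB + LDN/d5. All 30 alternative values of the summed share stayed within 1 SD, and 2 of 300 values of CPM did not. Fits within 1 kind of library hold 2 libraries per condition. For the other shifts the cause was not tested. The block pairs libraries by the order of their codes, not by a named preparation.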
